A study of Mus musculus with 32 samples.

Results

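Molecular chaperones and heat shock proteins were examined in 2 organs, liver and spleen, of cloned mice made by nuclear transfer. The genes were taken by symbol: the Hsp70, Hsp90, small heat shock protein and chaperonin families, the J-domain proteins Dnaja, Dnajb and Dnajc, the Cct subunits with Tcp1, the Pdia disulfide isomerases, the Bag co-chaperones, calreticulin (Calr) and calnexin (Canx). This gave 69 genes on 114 probes, of 9026 named genes on the array. By the compartment of their products, 9 are proteins of the endoplasmic reticulum (ER) and 45 are cytosolic or nuclear. Another 10 are mitochondrial, 3 sit in the ER membrane and face the cytosol, and 2 were left unassigned. By family there were 33 J-domain proteins, 10 genes of the cytosolic chaperonin, 9 Hsp70 proteins, 5 small heat shock proteins, 5 Bag proteins, 2 Hsp90 proteins, 2 lectin chaperones, 2 mitochondrial chaperonins and 1 disulfide isomerase. Hspa8, Hsp90ab1, Pdia3, Pdia6, Dnajb9, Hsf1 and Hsf2 were not analysed here.

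The samples came from male mice of strain 129/SvJ aged 18 to 19 weeks, in 4 groups of 4 cloned mice. These were livers of Dll1 clones and of wildtype clones, and spleens of the same 2 cohorts. The other channel of each array held pooled RNA: Dll1 het animals for the Dll1 clones and wildtype animals for the wildtype clones. Each organ of a mouse was measured on 2 arrays of opposite dye orientation, so that there were 8 arrays per group and 32 in all. Dll1 encodes a Notch ligand. All clones arose by nuclear transfer, and the pools came from animals not labelled as cloned. The sources used here name neither the donor cells nor the state of the Dll1 allele in the clones. Mice are numbered 1 to 4 within a cohort, and a number stands for the same animal in both organs. The protocol describes pools of 6 animals, while the labels list 4 animals per pool. Every clone of a cohort met the same pool, so the spread between pool animals is absent from all errors below, and cloning cannot be told apart from a peculiarity of the pool.

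Chaperones hold unfolded protein and let it fold without clumping. In the cytosol, Hsp70 works with J-domain proteins and nucleotide exchange factors, Hsp90 finishes client proteins, and the ring-shaped chaperonin folds actin and tubulin. The factor HSF1 raises these genes on heat or other protein damage. In the ER, the Hsp70 protein BiP (Hspa5), the Hsp90 protein Grp94 (Hsp90b1) and the lectins Calr and Canx fold secreted proteins, and the unfolded protein response raises them when folding falls behind. The liver secretes most plasma proteins, which makes ER chaperones abundant in hepatocytes. In mitochondria, Hsp60 (Hspd1) and its lid Hsp10 (Hspe1) form a chaperonin of their own.

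Each value below is a log2 ratio, likely of clone over pool. That direction is read from the order of words in the sample titles; were it the other way, each higher value would be a lower one. Ratios hold no level, so the organ could not be checked against its marker genes, and fewer cells of a type cannot be told apart from less RNA per cell. The median over an array ran from -0.067 to 0.042 for livers and from -0.054 to 0.079 for spleens. The median SD between mice over the chaperone genes was 0.092 in Dll1 and 0.083 in wildtype livers, and 0.34 in Dll1 and 0.20 in wildtype spleens.

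The dye-swapped arrays went against each other in part, which bears on every result. Values were read as already turned to 1 direction. Constants of extreme size were positive in 748 cases with the clone in Cy5 and negative in 435 with it in Cy3, with none of the other sign in either orientation. The mean ratios of the 69 genes in both orientations correlated at 0.0018 in Dll1 livers, -0.81 in wildtype livers, -0.41 in Dll1 spleens and -0.69 in wildtype spleens, as a description across genes that share arrays and pool. Only 12 of 69 genes had the same sign in both orientations in wildtype livers, 30 in Dll1 livers, 32 in Dll1 spleens and 24 in wildtype spleens. Arrays of the same mouse correlated over all probes at -0.72 to -0.25 in wildtype livers and at -0.20 to -0.027 elsewhere. With the Cy3 arrays turned in sign instead, 9176 features passed in wildtype livers, which is 53.9% of all features, and 42 of the 69 genes. Which reading holds was not settled. The plot of both orientations shows this by gene.

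**Figure D1:**
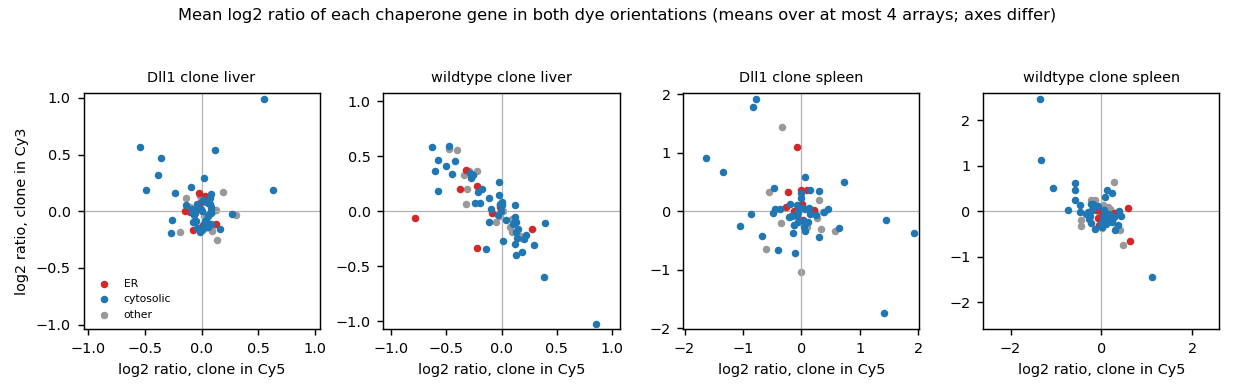
Mean log2 ratio of each of the 69 chaperone genes on arrays with the clone in Cy5 (x axis) and in Cy3 (y axis), 1 panel per group; red points are ER genes, blue points cytosolic genes and grey points the others. In wildtype livers the points run along the falling diagonal (r = -0.81), and in Dll1 livers they do not (r = 0.0018).

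Gene names carry a limit too. A row of the table was named by the platform's probe 11 places earlier, a shift found from the agreement of probes of 1 gene. With it, 5014 pairs of such probes correlated at a mean of 0.025 over the mice, against 0.00063 with no shift and 0.018 at the best of the other shifts. In the 10 stretches of the table the mean was above 0 in 9 and ranked first among all shifts in 3. The probe of Hspe1 lay in a stretch where it ranked 105, those of Hsp90b1 and Hspa1b in one where it ranked 2, and that of Hspa5 in one where it ranked 21. Of 31 chaperone genes with several probes, 18 had probes of both signs in Dll1 livers, 19 in wildtype livers, 16 in Dll1 spleens and 23 in wildtype spleens.

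Promoters are shown for the 5 ER genes that hold the ER stress element and for Hspe1, from RefSeq on GRCm38.p6, bases before the annotated start only. The ER stress element was searched as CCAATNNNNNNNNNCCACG on both strands of the 300 bases around each start. In it CCAAT is the site of NF-Y and CCACG that of ATF6, a factor of the unfolded protein response. It occurred in 39 of 32851 promoters, 0.119%. Of the 59 chaperone genes with a promoter 5 held it, all among the 9 ER genes. The sequences run 5′ to 3′ on the gene's strand, and capitals mark the element.
Hspa5, chr2:34771840-34772089, plus strand: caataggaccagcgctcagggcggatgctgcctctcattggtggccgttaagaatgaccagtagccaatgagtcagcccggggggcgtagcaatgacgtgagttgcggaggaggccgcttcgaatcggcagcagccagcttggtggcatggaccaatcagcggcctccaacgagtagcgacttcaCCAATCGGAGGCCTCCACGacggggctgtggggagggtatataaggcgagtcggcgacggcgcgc
Hsp90b1, chr10:86705445-86705694, minus strand: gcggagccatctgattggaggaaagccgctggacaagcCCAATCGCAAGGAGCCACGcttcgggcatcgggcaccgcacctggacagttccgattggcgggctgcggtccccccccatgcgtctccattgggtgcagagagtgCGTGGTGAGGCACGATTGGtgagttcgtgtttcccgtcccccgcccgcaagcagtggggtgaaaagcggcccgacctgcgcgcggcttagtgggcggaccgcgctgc
Calr, chr8:84847055-84847113, minus strand: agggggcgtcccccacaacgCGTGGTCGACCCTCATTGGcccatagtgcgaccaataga
Canx, chr11:50325780-50325838, minus strand: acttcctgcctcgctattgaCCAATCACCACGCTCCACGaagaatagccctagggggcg
Dnajc3, chr14:118937807-118937865, plus strand: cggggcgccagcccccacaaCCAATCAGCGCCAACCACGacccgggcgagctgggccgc
Hsp90b1 holds the element in both orientations, and in Calr it stands on the opposite strand. The heat shock element, the site of HSF1, was searched as GAANNTTCNNGAA and as TTCNNGAANNTTC on both strands. It occurred in 198 promoters, 0.603%, among them those of Hspe1, Hspd1, Hsph1 and Dnajb6. Hspe1 and Hspd1 lie head to head, and the 2 overlapping matches below fall in the promoters of both.
Hspe1, chr1:55088019-55088116, plus strand: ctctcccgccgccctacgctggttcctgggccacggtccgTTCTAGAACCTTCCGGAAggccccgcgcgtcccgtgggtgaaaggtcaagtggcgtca
A match is a description of letters and shows no binding. The promoters of Hspa1a and Hspa1b differ at 4 of 300 bases, and probes of such near-identical genes may bind the RNA of both.

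No chaperone gene passed an adjusted p of 0.05 (limma, adjusted over all features) in any group against its pool. Among all features 0 of 17037 passed in Dll1 livers (0%), 12 of 17037 in wildtype livers (0.0704%), 0 of 16999 in Dll1 spleens (0%) and 0 of 17009 in wildtype spleens (0%). At an unadjusted p under 0.05 there were 7 chaperone genes in Dll1 livers, where 9.14% of all features reached it. There were 6 in wildtype livers (8.88%), 7 in Dll1 spleens (9.98%) and 2 in wildtype spleens (3.42%). These shares are near the background, so the counts are no result about chaperones. The plot of all genes by mouse shows pale livers and stronger, less even colours in the spleens.

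**Figure D2:**
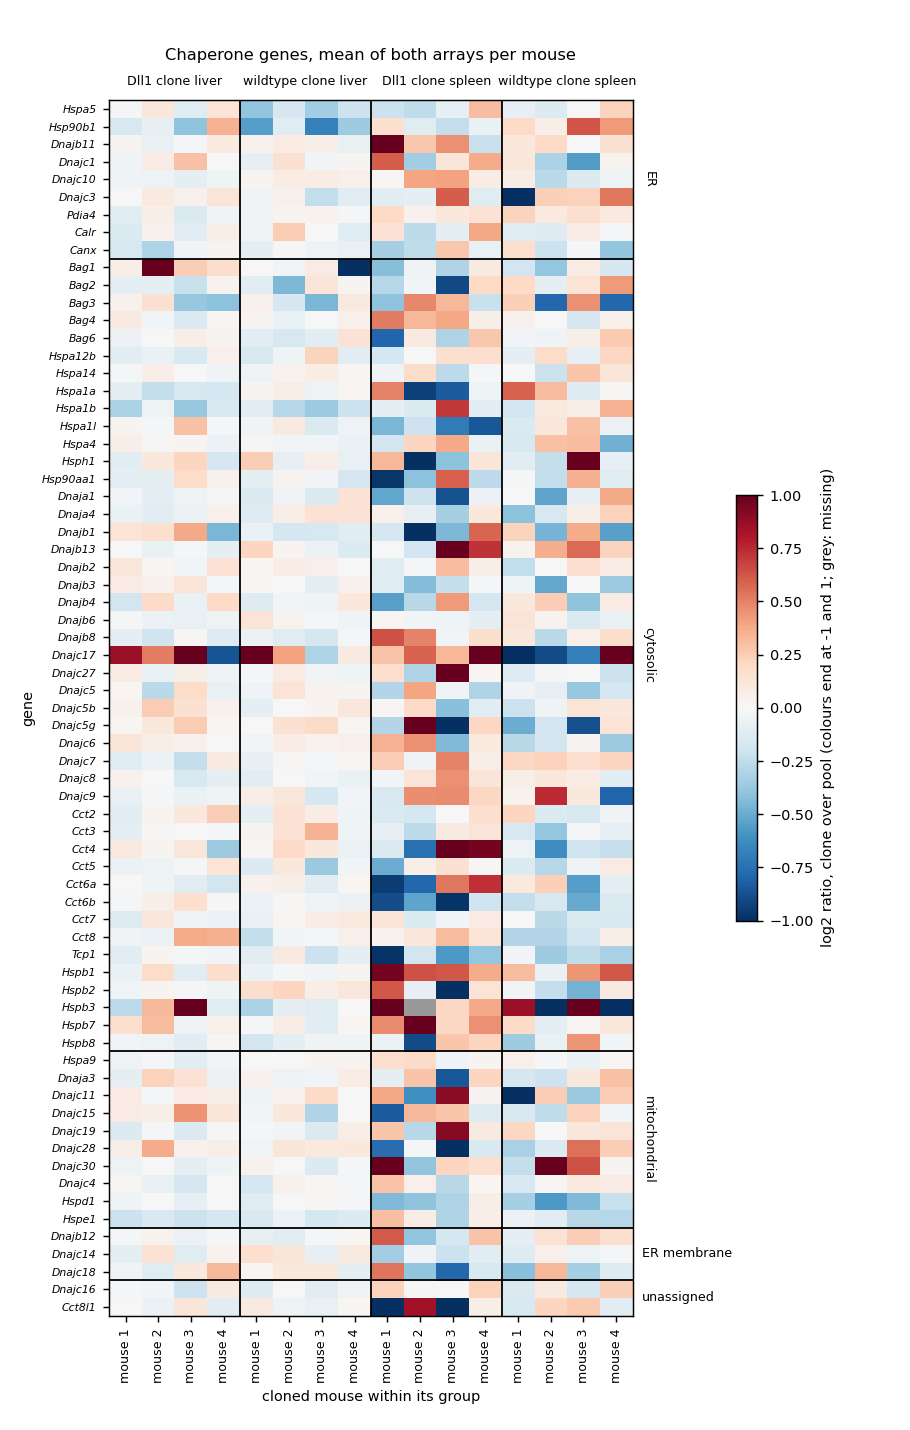
Log2 ratio of each of the 69 genes (rows, by compartment) in each of the 4 mice of each group (columns), averaged over the mouse's arrays; red is higher and blue lower in the clone, colours end at -1 and 1, and grey is missing. Hspe1 is blue in all 8 livers, and Hspa5 and Hsp90b1 are blue in all 4 wildtype livers.

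Among the ER chaperones of wildtype livers, Hspa5 and Hsp90b1 lay lowest. Hspa5, the ER Hsp70 that also holds the stress sensors inactive, lay at -0.01, 0.11, -0.12 and 0.13 in the 4 Dll1 livers and at -0.40, -0.16, -0.34 and -0.20 in the 4 wildtype livers. The cohorts did not overlap, and each wildtype liver lay under its pool. The share of all features whose cohorts did not overlap is not given here. A separation of the cohorts, for Hspa5 or a gene below, is thus only a description. All 8 arrays of the wildtype livers were under 0 for Hspa5, in both orientations. Its mean there was -0.28 (SE 0.06, adjusted p = 0.262 by limma), against 0.03 in Dll1 livers. A fit of unaveraged arrays, in which mouse was a random block and dye a term, put it past the threshold (adjusted p = 0.0144 by limma), and with the Cy3 arrays turned it was 0.05 (adjusted p = 0.393 by limma). In spleens Hspa5 straddled 0, at -0.21, -0.25, -0.08 and 0.31 in Dll1 clones and -0.08, -0.13, -0.01 and 0.22 in wildtype clones. Mouse 4 was the highest in both cohorts.

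Hsp90b1, the ER Hsp90, lay at -0.16, -0.08, -0.41 and 0.35 in Dll1 livers and at -0.55, -0.12, -0.68 and -0.36 in wildtype livers. All 4 wildtype livers lay under 0, and 7 of their 8 arrays did. The mean was -0.43 in wildtype livers (SE 0.12, adjusted p = 0.392 by limma) and -0.07 in Dll1 livers. In wildtype livers its arrays averaged -0.79 with the clone in Cy5 and -0.06 with it in Cy3, so most of the value came from 1 orientation. With the Cy3 arrays turned it was -0.36 (adjusted p = 0.0183 by limma). In spleens Hsp90b1 lay at 0.16, -0.12, -0.24 and -0.06 in Dll1 clones and at 0.19, 0.06, 0.63 and 0.43 in wildtype clones. It was thus over 0 in every wildtype spleen and under 0 in every wildtype liver. In wildtype spleens its arrays averaged 0.58 with the clone in Cy5 and 0.08 with it in Cy3, so there too 1 orientation gave most of the value.

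The remaining ER members stayed close to 0 in liver when both orientations were averaged. Calr, a calcium-binding lectin chaperone, averaged -0.04 in Dll1 and 0.02 in wildtype livers. Canx, its membrane-bound relative, averaged -0.12 in Dll1 livers, with -0.16, -0.31, -0.04 and 0.03 in the 4 mice, and -0.05 in wildtype livers. In wildtype livers its 3 probes differed in sign. Dnajb11 and Dnajc3, J-domain partners of BiP, averaged 0.01 and 0.07 in Dll1 livers and 0.03 and -0.09 in wildtype livers. Dnajc10, an ER disulfide reductase with a J-domain, lay at -0.03, -0.05, -0.09 and -0.04 in Dll1 livers and at 0.02, 0.07, 0.08 and 0.05 in wildtype livers. These small values were opposite in every mouse, and the cohort difference was -0.11 (SE 0.05, adjusted p = 0.935 by limma). In wildtype livers the arrays of Dnajc10 averaged 0.27 with the clone in Cy5 and -0.16 with it in Cy3. The sign there is thus a remainder of opposed orientations. Opposed orientations also lay behind other means near 0 in wildtype livers. Arrays of Dnajb11 averaged -0.32 there with the clone in Cy5 and 0.38 with it in Cy3. Those of Dnajc3 averaged -0.38 and 0.21, and those of Pdia4 -0.22 and 0.23, in that order. Calr, Canx and Dnajc1 averaged between -0.089 and 0.059 in either orientation.

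Pdia4, a disulfide isomerase, was the ER member that lay over 0 in all 8 spleens, at 0.20, 0.04, 0.11 and 0.15 in Dll1 clones and 0.22, 0.10, 0.16 and 0.10 in wildtype clones. Of all features 1.43% were over 0 in all 8 spleens. Arrays of Pdia4 averaged 0.32 with the clone in Cy5 and -0.03 with it in Cy3 in wildtype spleens, and 0.22 and 0.02 in Dll1 spleens. Its 3 probes averaged 0.09, 0.09 and 0.19 in Dll1 spleens and 0.33, -0.02 and 0.13 in wildtype spleens, so 1 probe went the other way in wildtype spleens. Dnajb11 was uneven in Dll1 spleens, at 1.82, 0.27, 0.46 and -0.22, and lay at 0.12 on average in wildtype spleens.

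The 5 ER members with the ER stress element had a median of -0.037 in Dll1 livers (-0.12 to 0.069) and of -0.088 in wildtype livers (-0.43 to 0.022). The 4 without a match had medians of -0.023 in Dll1 livers and 0.022 in wildtype livers, where they ran from 0.0045 to 0.056. The ranges overlapped in the livers of both cohorts, Calr being the member with the element that stood over 0 in wildtype livers. In spleens the 5 members with the element had medians of -0.060 in Dll1 clones and -0.012 in wildtype clones, and the 4 without a match 0.20 in Dll1 clones and 0.011 in wildtype clones. By gene means the sets did not overlap in Dll1 spleens, where the highest with the element was Dnajc3 at 0.073 and the lowest without was Pdia4 at 0.12. Members without a match were uneven there, so the separation is only a description. Arrays of Dnajb11, 7 with a value, averaged -0.07 with the clone in Cy5 and 1.102 with it in Cy3. The probes of Dnajc10 averaged 0.51 and -0.07, and Dnajc1 ran from -0.349 to 0.603 over the mice. These sets were formed with the liver values known and were not tested.

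Other genes of ER folding and the unfolded protein response were read from a list of 44, of which 35 were measured in liver. None passed in either cohort by limma. In Dll1 livers 15 of 35 lay under 0 (51.7% of all features), with a list median of 0.0093, and in wildtype livers 18 of 35 (45.2%), with a median of -0.0084. At an unadjusted p under 0.05, 4 were higher and 2 lower in Dll1 livers (3.6% and 5.54% of all features), and 2 higher and 5 lower in wildtype livers (4.62% and 4.26%). Hyou1, a large ER chaperone that works with BiP, lay at -0.19 in Dll1 and -0.27 in wildtype livers (adjusted p = 0.504 and 0.355 by limma). Herpud1, of ER-associated degradation, lay at -0.19 in Dll1 and -0.20 in wildtype livers (adjusted p = 0.481 and 0.415 by limma). Selenos, Derl1 and the oxidase Ero1b were lower in wildtype livers at -0.19, -0.14 and -0.12, while Ddit3, a stress-induced transcription factor, lay at 0.10. The genes named here are mostly low ones, and over the whole list the medians above lay near 0 in both cohorts.

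Hepatocyte genes lay under 0 in the same livers. Of 20 listed markers 12 were measured, and 12 of 12 lay under 0 in both cohorts, with medians of -0.11 in Dll1 and -0.20 in wildtype livers. Their mean was -0.22, -0.057, -0.20 and -0.059 in Dll1 mice 1 to 4 and -0.34, -0.21, -0.31 and -0.11 in wildtype mice 1 to 4. Wildtype mice 1 and 3 were thus the lowest for these markers and also for Hspa5 and Hsp90b1. The part of this in the ER values was not tested.

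**Figure D3:**
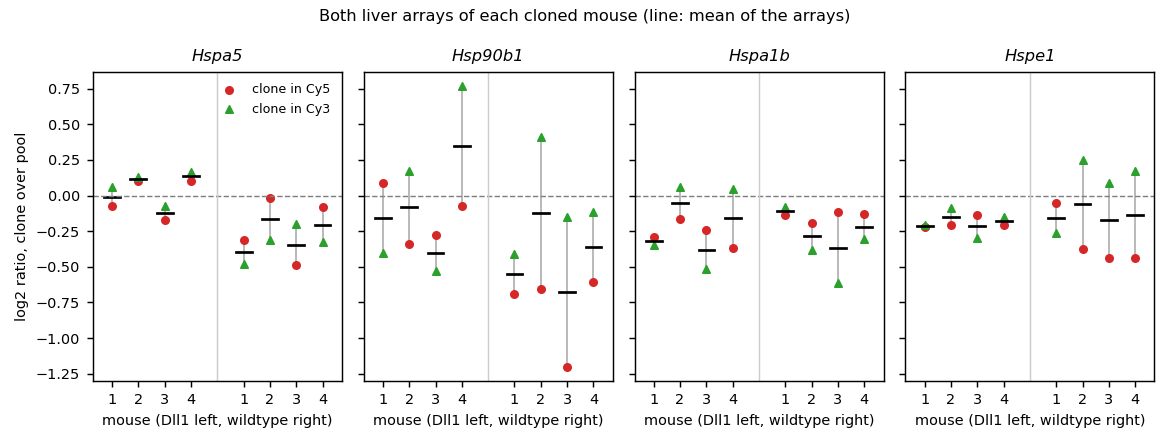
Log2 ratio of Hspa5, Hsp90b1, Hspa1b and Hspe1 on both liver arrays of each mouse (Dll1 mice left, wildtype mice right in each panel); red points have the clone in Cy5, green triangles in Cy3, and black lines are the mean of the arrays. Hspa5 and Hspa1b are under 0 on all 8 arrays of the wildtype livers, and Hspe1 is under 0 on all 8 arrays of the Dll1 livers.

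Among cytosolic Hsp70 genes, the heat-inducible pair Hspa1a and Hspa1b had the smallest p-values in Dll1 livers, and Hspa1b without Hspa1a in wildtype livers. Hspa1b lay at -0.32, -0.05, -0.38 and -0.16 in Dll1 livers and at -0.11, -0.29, -0.37 and -0.22 in wildtype livers. It was under 0 in all 8 livers, as were 1.72% of all features. The mean was -0.23 in Dll1 livers (SE 0.06, adjusted p = 0.481) and -0.24 in wildtype livers (SE 0.06, adjusted p = 0.355, both by limma), and over both cohorts -0.24 (SE 0.04, adjusted p = 0.100). On that mean over both cohorts 19 of 17020 features passed (0.112%), none of them a chaperone gene. The fit of unaveraged arrays put Hspa1b past the threshold (adjusted p = 0.0073 by limma). With the Cy3 arrays turned, its mean over both cohorts was 0.03 and did not pass.

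Hspa1a lay at -0.10, -0.24, -0.16 and -0.17 in Dll1 livers and at 0.03, 0.07, -0.05 and 0.02 in wildtype livers. The cohorts did not overlap, although the probe of its near-identical copy Hspa1b gave alike values in both. The mean was -0.17 in Dll1 livers (SE 0.04, adjusted p = 0.435) and 0.02 in wildtype livers, and the cohort difference was -0.18 (SE 0.05, adjusted p = 0.935, both by limma). In spleens both genes scattered widely. Hspa1a ran from -0.93 to 0.50 in Dll1 spleens, where 6 of 8 arrays gave a value, and from -0.13 to 0.59 in wildtype spleens. Hspa1b ran from -0.15 to 0.71 in Dll1 spleens and from -0.19 to 0.35 in wildtype spleens.

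Hspa1l, a testis Hsp70 encoded beside that pair, lay at -0.46, -0.21, -0.70 and -0.85 in Dll1 spleens and at -0.15, 0.11, 0.29 and -0.06 in wildtype spleens. Every Dll1 spleen was under every wildtype spleen. The mean of -0.55 in Dll1 spleens (SE 0.14) had an adjusted p of 0.410, and the cohort difference of -0.60 (SE 0.20) one of 0.882, both by limma. That cohort difference had 1 chaperone gene at an unadjusted p under 0.05, where 4.60% of features reached it.

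Hsph1, the Hsp110 exchange factor for Hsp70, showed how far the orientations can part. Its arrays averaged -0.54 with the clone in Cy5 and 0.57 with it in Cy3 in Dll1 livers, and -0.26 and 0.33 in wildtype livers. The means of both orientations were 0.01 in Dll1 and 0.04 in wildtype livers. In spleens they were -1.63 in Cy5 and 0.91 in Cy3 in Dll1 clones, and -1.34 in Cy5 and 2.48 in Cy3 in wildtype clones, where 1 array of mouse 3 read 6.66. Hsp90aa1, the inducible cytosolic Hsp90, averaged 0.01 in Dll1 and -0.06 in wildtype livers, and -0.26 in Dll1 and -0.01 in wildtype spleens.

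The cytosolic J-domain proteins gave no shared direction. Dnajb1, the stress-induced partner of Hsp70, lay at 0.13, 0.16, 0.38 and -0.45 in Dll1 livers and at -0.07, -0.18, -0.16 and -0.11 in wildtype livers. Mouse 4 alone was under 0 among the Dll1 livers, but these values are remainders of opposed orientations. In Dll1 livers the arrays of Dnajb1 averaged -0.36 with the clone in Cy5 and 0.47 with it in Cy3. In wildtype livers they averaged 0.01 with the clone in Cy5 and -0.27 with it in Cy3. Dnaja1 averaged -0.04 in Dll1 and -0.05 in wildtype livers, and lay at -0.52, -0.21, -0.87 and -0.06 in Dll1 spleens, with a mean of -0.42 (SE 0.18, adjusted p = 0.499 by limma). Over the 33 J-domain genes of all compartments, 16 lay under 0 in Dll1 livers and 15 in wildtype livers, 14 in Dll1 spleens and 19 in wildtype spleens. Their medians ran from -0.012 to 0.073 over the 4 groups. Dnajc5g, a relative of the synaptic chaperone Dnajc5, was over 0 in all 8 livers, as were 1.15% of features, at 0.10 on average in Dll1 and 0.09 in wildtype clones. Dnajc17, a splicing-related J-domain protein, had 5 to 7 arrays per group with a value and ran from -1.14 to 2.36 over the mice.

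Other J-domain genes with small unadjusted p-values in 1 organ or cohort did not pass after adjustment. Dnajc7, a J-domain protein that binds both Hsp70 and Hsp90, lay at 0.24, -0.04, 0.50 and 0.07 in Dll1 spleens and at 0.21, 0.23, 0.17 and 0.22 in wildtype spleens. The wildtype spleens were close together, and the Dll1 spleens were spread over both signs. Arrays of Dnajc7 in wildtype spleens averaged 0.40 with the clone in Cy5 and 0.02 with it in Cy3. Its mean in livers was -0.08 in Dll1 and -0.02 in wildtype clones. Dnajc28 lay at -0.76, -0.02, -1.16 and -0.15 in Dll1 spleens, all under 0, and at 0.06, 0.37, 0.04 and 0.06 in Dll1 livers, all over 0. In wildtype clones it averaged 0.07 in livers and 0.08 in spleens. Its arrays averaged 0.30 with the clone in Cy5 and -0.04 with it in Cy3 in Dll1 livers, and -0.002 and -1.045 in Dll1 spleens.

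Dnajb8 lay at -0.09, -0.20, 0.01 and -0.13 in Dll1 livers and at -0.06, -0.12, -0.17 and -0.02 in wildtype livers, with a mean over both cohorts of -0.10 (adjusted p = 0.285 by limma). In Dll1 spleens it averaged 0.32. Dnajc15, of the mitochondrial inner membrane, averaged 0.18 in Dll1 and -0.06 in wildtype livers, and Dnajc5b 0.12 in Dll1 and 0.01 in wildtype livers. In spleens Dnajb3 averaged -0.20 in Dll1 and -0.23 in wildtype clones, Dnajb13 0.48 in Dll1 and 0.30 in wildtype clones, and Dnajc14 -0.17 in Dll1 and -0.04 in wildtype clones. Dnajc6, a partner of Hsp70 in clathrin uncoating, averaged 0.12 in Dll1 and -0.20 in wildtype spleens. Dnaja4 stayed between -0.07 and 0.06 on average in all 4 groups.

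In mitochondria, Hspe1 gave the smallest p of all chaperone genes. It lay at -0.21, -0.15, -0.22 and -0.18 in Dll1 livers and at -0.15, -0.06, -0.17 and -0.13 in wildtype livers. All 8 livers were under 0, and the Dll1 livers spread by no more than 0.03 (SD, n = 4). The mean was -0.19 in Dll1 livers (SE 0.04, adjusted p = 0.388) and -0.13 in wildtype livers (SE 0.04, adjusted p = 0.388, both by limma). Over both cohorts it was -0.16 (SE 0.02, adjusted p = 0.0593). All 8 arrays of Dll1 livers were under 0, but in wildtype livers the arrays averaged -0.33 with the clone in Cy5 and 0.06 with it in Cy3. The mean over both cohorts passed when features missing on any array were left out (adjusted p = 0.0496) and in the fit of unaveraged arrays (adjusted p = 0.0289, both by limma). With the Cy3 arrays turned it was -0.099 and did not pass.

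Hspd1, transcribed from the opposite strand of the same promoter region, averaged -0.03 in Dll1 and -0.03 in wildtype livers. In spleens Hspd1 lay at -0.44, -0.40, -0.31 and 0.06 in Dll1 clones and at -0.33, -0.57, -0.44 and -0.23 in wildtype clones. All wildtype spleens and all but mouse 4 of the Dll1 spleens were under 0. The mean was -0.27 in Dll1 spleens (SE 0.13, adjusted p = 0.516) and -0.39 in wildtype spleens (SE 0.13, adjusted p = 1, both by limma). Both SEs come from 1 spread shared by the cohorts, while the SD of Hspd1 between mice was 0.15 in wildtype and 0.23 in Dll1 spleens. All 8 arrays of the wildtype spleens were under 0. Its 2 probes averaged -0.51 and -0.03 in Dll1 spleens and -0.50 and -0.29 in wildtype spleens. Hspe1 lay at 0.03 on average in Dll1 spleens and at -0.18 in wildtype spleens. Hspa9, the mitochondrial Hsp70, averaged between -0.05 and 0.09 in all 4 groups over its 4 probes.

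The cytosolic chaperonin leaned under 0 in wildtype spleens, while in Dll1 spleens its mean differed in sign between mice. Of its 10 genes 7 lay under 0 in Dll1 spleens (49.2% of all features) and 9 in wildtype spleens (47.3%), with medians of -0.054 in Dll1 and -0.15 in wildtype clones. In livers 6 of 10 were under 0 in Dll1 clones and 5 in wildtype clones, with medians of -0.016 and -0.0016. The mean over these genes was -0.59, -0.18, 0.071 and 0.17 in Dll1 spleens of mice 1 to 4 and -0.074, -0.21, -0.18 and -0.10 in wildtype spleens. Mouse 1 of the Dll1 spleens was carried in part by Cct8l1, a chaperonin-like gene, which lay at -2.43, 0.84, -0.996 and 0.06 in the Dll1 spleens, with 1 array of mouse 1 at -4.78. Without Cct8l1, a set chosen after seeing the data, the mean was -0.39, -0.30, 0.19 and 0.18 in Dll1 spleens and -0.066, -0.25, -0.23 and -0.10 in wildtype spleens.

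Cct6b, a chaperonin subunit that in mouse is mainly of testis, lay at -0.88, -0.53, -0.98 and -0.20 in Dll1 spleens and at -0.23, -0.16, -0.51 and -0.14 in wildtype spleens. Tcp1, the alpha subunit, lay at -0.98, -0.19, -0.57 and -0.39 in Dll1 spleens and at -0.03, -0.35, -0.26 and -0.33 in wildtype spleens. Both genes were under 0 in all 8 spleens, as were 0.926% of all features. The means were -0.65 (SE 0.16) and -0.53 (SE 0.15) in Dll1 spleens, each with an adjusted p of 0.410 by limma, and -0.26 and -0.24 in wildtype spleens, each with an adjusted p of 1. The 3 probes of Cct6b averaged -0.28, -1.82 and -0.11 in Dll1 spleens, so that 1 probe, with an SD of 2.16 between mice, carried most of the mean. All 3 probes of Tcp1 averaged under 0 in both cohorts, from -0.99 to -0.15 in Dll1 spleens and from -0.34 to -0.14 in wildtype spleens. Both genes stayed between -0.08 and 0.06 on average in livers. Of the other subunits, Cct4 ran from -0.75 to 2.20 in Dll1 spleens and lay at -0.05, -0.62, -0.20 and -0.23 in wildtype spleens. These values are remainders of opposed orientations. In wildtype spleens the arrays of Cct4 averaged -1.06 with the clone in Cy5 and 0.51 with it in Cy3. In Dll1 spleens they averaged -0.79 and 1.92 in that order, and 1 array of mouse 3 read 4.64. Cct3 averaged -0.03 in Dll1 and -0.16 in wildtype spleens. Cct8 was over 0 in all 4 Dll1 spleens, with a mean of 0.15, and averaged -0.18 in wildtype spleens.

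Marker genes of dividing cells and of red cells also lay mostly under 0 in spleens. Of 14 measured cycling markers 12 lay under 0 in Dll1 spleens and 12 in wildtype spleens, with medians of -0.23 in Dll1 and -0.46 in wildtype clones. Their mean per mouse ran from -0.39 to -0.042 in Dll1 spleens and from -0.41 to -0.38 in wildtype spleens. Of 11 measured erythroid markers 10 lay under 0 in Dll1 spleens and 9 in wildtype spleens, with medians of -0.61 in Dll1 and -0.39 in wildtype clones. Dll1 mice 1 and 2 were the lowest for erythroid markers, at -1.22 and -0.83, against -0.062 and -0.14 in mice 3 and 4, and had the lowest chaperonin means, with and without Cct8l1. The part of these cells in the chaperonin values was not tested.

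Small heat shock proteins, which hold damaged protein without ATP, had a median of 0.61 over 5 genes in Dll1 spleens, against 0.006 over all features there. Of the 5, 2 averaged under 0 in Dll1 spleens, Hspb2 and Hspb8, both at -0.12, and 3 in wildtype spleens. Hspb3, the highest in Dll1 spleens at 0.91, had values on 4 of 8 arrays there. Hspb1 lay at 0.96, 0.64, 0.62 and 0.37 in Dll1 spleens and at 0.31, -0.06, 0.44 and 0.62 in wildtype spleens. All Dll1 spleens and all but mouse 2 of the wildtype spleens were over 0. The mean was 0.65 in Dll1 spleens (SE 0.15, adjusted p = 0.410) and 0.33 in wildtype spleens (SE 0.15, adjusted p = 1, both by limma). In Dll1 spleens its arrays averaged 1.44 with the clone in Cy5 and -0.15 with it in Cy3. Hspb7, a small heat shock protein of muscle, lay at 0.47, 1.3, 0.21 and 0.46 in Dll1 spleens and averaged 0.06 in wildtype spleens.

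Hspb2 lay at 0.18, 0.21, 0.07 and 0.12 in wildtype livers and within 0.04 of 0 in the Dll1 livers, at -0.03, 0.03, -0.02 and -0.04. All wildtype livers were above all Dll1 livers, with a cohort difference of -0.16 (SE 0.05, adjusted p = 0.935 by limma). Its arrays in wildtype livers averaged 0.39 with the clone in Cy5 and -0.11 with it in Cy3, and with the Cy3 arrays turned the mean was 0.25 (adjusted p = 0.0016 by limma). Hspb8, a partner of Bag3, averaged -0.05 in Dll1 and -0.09 in wildtype livers. Hspb3 was missing in 1 Dll1 spleen, and ran from 0.21 to 2.13 in the other Dll1 spleens and from -1.93 to 2.17 in the wildtype spleens.

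**Figure D4:**
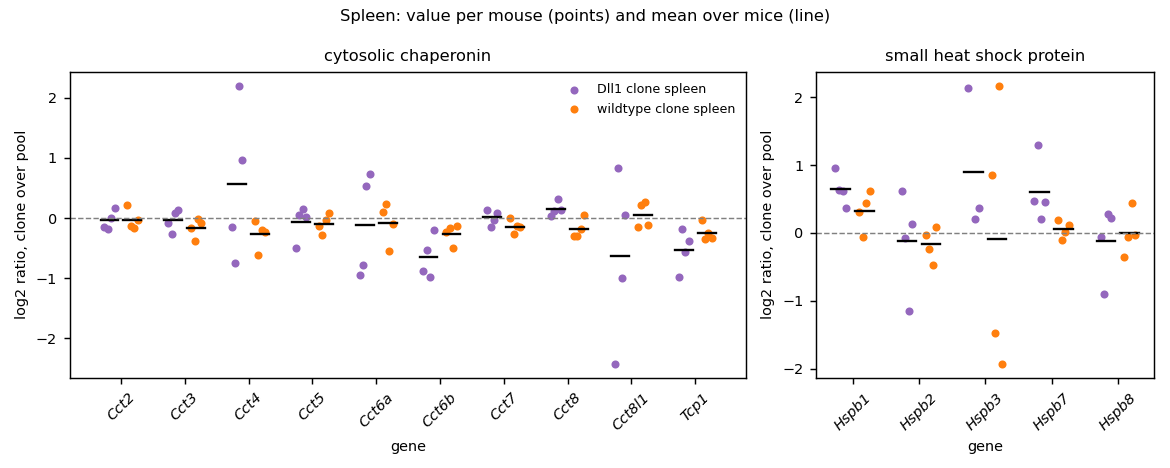
Log2 ratio per mouse (points) and mean (black lines) in Dll1 clone spleens (purple) and wildtype clone spleens (orange) for the 10 genes of the cytosolic chaperonin (left panel) and the 5 small heat shock proteins (right panel). Cct6b and Tcp1 are under 0 in all 8 spleens, and Hspb1 is over 0 in 7 of 8.

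The Bag proteins, exchange factors and adaptors of Hsp70, had no gene with an adjusted p under 0.05. Bag1 averaged 0.41 in Dll1 livers through mouse 2 at 1.16, with 0.06, 0.24 and 0.18 in the others, and -0.26 in wildtype livers through mouse 4 at -1.09. The arrays of that Dll1 mouse read 2.97 with the clone in Cy5 and -0.657 with it in Cy3. Wildtype mouse 4 had a Bag1 value only with the clone in Cy3. Over the wildtype livers, arrays of Bag1 averaged -0.575 with the clone in Cy5 and 0.18 with it in Cy3. Bag2 averaged -0.10 in Dll1 and -0.11 in wildtype livers. Bag3, the stress-induced member, averaged -0.15 in Dll1 and -0.12 in wildtype livers. Bag4 lay at 0.52, 0.34, 0.39 and 0.06 in Dll1 spleens and between -0.17 and 0.05 in wildtype spleens.

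ER and cytosolic members were then set side by side, as the mean over 9 and 45 genes in each mouse. The ER mean minus the cytosolic mean was -0.035 ± 0.11 in Dll1 livers and -0.064 ± 0.065 in wildtype livers (SD, n = 4 each). It was 0.10 ± 0.17 in Dll1 spleens and 0.048 ± 0.092 in wildtype spleens (SD, n = 4 each). The sign was not shared by all 4 mice in any group: the difference was -0.059, -0.063, -0.14 and 0.12 in Dll1 livers and -0.12, 0.028, -0.091 and -0.072 in wildtype livers. In spleens it was 0.31, -0.013, 0.18 and -0.055 in Dll1 clones and -0.0069, 0.10, -0.050 and 0.15 in wildtype clones. By means, ER members were lower than cytosolic members in 3 of 4 livers of each cohort, and by medians over genes in 2 of 4. The direction depended on the reading of the data: with the Cy3 arrays turned the mean difference was 0.020 in Dll1 livers and -0.11 in Dll1 spleens. With the constants kept it was 0.055 in Dll1 livers, 0.034 in wildtype livers and -0.0028 in wildtype spleens.

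The liver difference of the wildtype clones rested on a pair of genes. Without Hspa5 and Hsp90b1 it was 0.014, against -0.064 with them, while in Dll1 livers it was -0.033 without them. In spleens, leaving out the pair moved the difference from 0.048 to 0.00565 in wildtype clones and from 0.10 to 0.15 in Dll1 clones. The ER mean was -0.017 ± 0.069 in Dll1 and -0.079 ± 0.081 in wildtype livers, and the cytosolic mean 0.018 ± 0.051 in Dll1 and -0.015 ± 0.022 in wildtype livers (SD, n = 4 each). In wildtype livers 4 of 9 ER members and 25 of 45 cytosolic members averaged under 0, as did 45.2% of all features. The mitochondrial mean lay between -0.028 and 0.012 in all 4 groups.

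**Figure D5:**
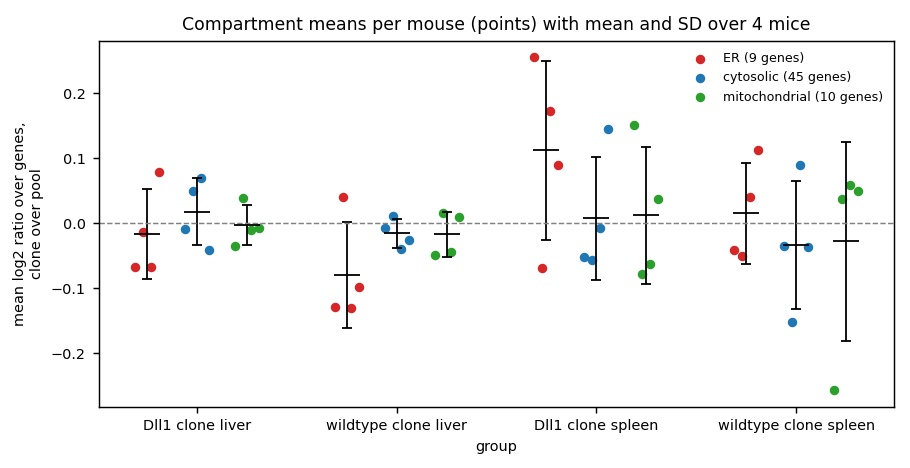
Mean log2 ratio over the 9 ER genes (red), 45 cytosolic genes (blue) and 10 mitochondrial genes (green) in each mouse (points), with the mean and SD over 4 mice (black). The ER means lie under 0 in 3 of 4 livers of each cohort, and all group means lie within 0.12 of 0.

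Cytosolic co-chaperones outside the families, such as Stip1 and Ahsa1 of the Hsp90 cycle, were read from a list of 28, with 17 measured. None passed by limma, 9 of 17 lay under 0 in Dll1 livers and 10 in wildtype livers, and the medians were -0.0069 and -0.011. Ahsa1, which speeds the ATPase of Hsp90, lay at -0.29 in Dll1 and -0.36 in wildtype livers (adjusted p = 0.519 and 0.433 by limma), and at 0.74 in wildtype spleens. Of 13 listed genes of mitochondrial folding 9 were measured, and none passed by limma. Trap1, the mitochondrial Hsp90, lay at -0.12 in both Dll1 and wildtype livers (adjusted p = 0.502 and 0.470 by limma).

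Genes with the same sign in all 4 mice were counted beside all features. Under 0 in 4 of 4 mice were 10 genes in Dll1 livers (14.5%, against 9.81% of features) and 9 in wildtype livers (13% against 9%). In spleens these were 7 in Dll1 clones (10.1% against 7.11%) and 8 in wildtype clones (11.6% against 6.87%). Over 0 in 4 of 4 were 6 in Dll1 livers (8.7% against 5.89%) and 4 in wildtype livers (5.8% against 11.6%). In spleens these were 7 in Dll1 clones (10.1% against 8.15%) and 5 in wildtype clones (7.25% against 8.78%). The shares under 0 were above those of all features in each group, and those over 0 were below them in the wildtype groups. These differences were not tested. In liver the cohorts shared the sign of the mean in 35 of 69 genes, 50.7%, against 59.1% of all features, and in spleen in 39 of 69, 56.5%, against 52.8%.

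No cohort difference passed for a chaperone gene or any feature. In liver 5 chaperone genes were at an unadjusted p under 0.05 (4.91% of features), with Hspa5 first at 0.31 for Dll1 minus wildtype (SE 0.08, adjusted p = 0.935 by limma). Hsp90b1 differed by 0.35 (SE 0.16, adjusted p = 0.935 by limma). In spleen Hspb7 differed by 0.55 (SE 0.25) and Hsp90b1 by -0.40 (SE 0.19), each with an adjusted p of 0.882 by limma.

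Liver was also set against spleen within each cohort, as liver minus spleen of the ratios to the pool. No feature passed in either cohort, and 7 chaperone genes in Dll1 clones (7.58% of features) and 9 in wildtype clones (9.48%) had an unadjusted p under 0.05. Hsp90b1 gave the smallest p in wildtype clones, with -0.43 in liver, 0.33 in spleen and a difference of -0.75 (SE 0.17, adjusted p = 0.191 by limma). Hspd1 followed with -0.03 in liver, -0.39 in spleen and a difference of 0.36 (SE 0.10, adjusted p = 0.282 by limma). In Dll1 clones Cct6b differed by 0.70 (SE 0.19), Hspb1 by -0.60 (SE 0.17) and Hspa1l by 0.62 (SE 0.18), each with an adjusted p of 0.620 by limma. The pools of the organs were also different RNA, which the contrast cannot separate.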

How the data were processed

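The authors deposited log2 ratios of 2-colour arrays, 20794 rows on 32 arrays. The labels give the dyes; how the authors scanned, filtered and normalized the spots is not given here. Values beyond 9 in size, 1183 on 883 rows and 6 of them on chaperone rows, were taken as missing constants. Rows were named by the platform's probe 11 places earlier (12760 rows). Probes of 1 gene were averaged, giving 17060 features, and both arrays of a mouse were averaged. Each group was tested against 0 with limma 3.58.1 in R 4.3.3, over features with at least 3 mice, with Benjamini-Hochberg adjustment over all features. Both cohorts of an organ were fitted together with 1 spread per feature, so a group's SE and p also carry the other cohort's spread. Organ differences shared 1 spread between the organs of a cohort. P-values measure the spread between these mice. The code was tested on simulated data. Organs of 1 animal are paired by the labels' animal numbers; the correlation of their deviations was 0.00061 to 0.078.

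Members, compartments and gene lists were chosen with earlier results of these data known. Always named were 25 genes of the families fixed by role, where measured, and the 5 genes with the smallest p in each direction of each comparison. Bag3 and Hspb3 were named after their values were seen, and Dnajb6 for its motif. Alternatives were the Cy3 arrays turned, arrays centred or scaled, the constants kept, no shift of names, 1 probe per gene, complete arrays, each group fitted alone, the mouse as a replicate block between organs, single arrays with a mouse block and dye term, and each mouse left out.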

Additional observations from a re-analysis of the deposited data

Results flagged for a closer look

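In 180 sets of 4 mice, 1 mouse lay apart from the other 3 by Dixon's criterion in 11, where chance gives about 5%. In livers these were Bag1 in Dll1 mouse 2 at 1.16 and in wildtype mouse 4 at -1.09, Dnajc15 in Dll1 mouse 3 at 0.449, Dnajc28 in Dll1 mouse 2 at 0.372 and Hspa1l in Dll1 mouse 3 at 0.292. For Bag1, the arrays of Dll1 mouse 2 had opposite signs, and wildtype mouse 4 had a value only with the clone in Cy3. In spleens these were Dnajc17 in Dll1 mouse 4 at 2.36 and in wildtype mouse 4 at 1.68, Dnajc3 in Dll1 mouse 3 at 0.607, Hspa1b in Dll1 mouse 3 at 0.71 and Hsph1 in wildtype mouse 3 at 2.71. The mean over mitochondrial genes lay apart in wildtype spleen mouse 1 at -0.256.

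Among the 42 genes named by rule, 4 cases had every mouse of one side opposite in sign to every mouse of the other. Many of these genes were named for small p-values in the same data. The share of all features that meet this is not given here, so the count is no result about chaperones. Dnajc10 differed by -0.111 between Dll1 and wildtype livers (adjusted p = 0.935 by limma) and by -0.277 between liver and spleen of Dll1 clones. Dnajc28 differed by 0.655 between liver and spleen of Dll1 clones, and Hsp90b1 by -0.754 between liver and spleen of wildtype clones (adjusted p = 0.191 by limma). None of these passed the adjusted threshold.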

How the results depend on the processing

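No chaperone gene passed in any comparison as first fitted, and leaving out each mouse in turn kept that at 0. Over all features the counts then ran from 0 to 2 in Dll1 livers, 0 to 2 in wildtype livers, 0 to 1 in Dll1 spleens and 9 to 27 for the mean over both cohorts in liver. ER minus cytosolic means then ran from -0.0861 to -0.000497 in Dll1 livers, -0.0949 to -0.0449 in wildtype livers, 0.037 to 0.157 in Dll1 spleens and 0.0146 to 0.081 in wildtype spleens. With the mouse as a replicate block, 0 features passed in both organ comparisons, and the block changed no call.

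The choice that moved most was the turning of the Cy3 arrays; the cause was not tested. Features called then were 767 in Dll1 livers, 9176 in wildtype livers, 732 in Dll1 spleens, 141 in wildtype spleens, 6892 for the cohort difference and 7092 for the mean in liver, 1981 for the mean in spleen and 3536 between organs of wildtype clones. Chaperone genes called were 3, 42, 1 and 0 in the 4 groups in that order, 27 and 34 for the difference and mean in liver, 6 for the mean in spleen and 17 between organs of wildtype clones. ER minus cytosolic was then 0.0199 in Dll1 livers, -0.105 in Dll1 spleens and 0.207 in wildtype spleens. The sign of the mean differed in 38 of 69 genes in Dll1 livers, 40 in wildtype livers (Hspa5 at 0.0527 and Hspa1b at 0.101 among them), 34 in Dll1 spleens and 34 in wildtype spleens. Among the genes named by rule, those that took the other sign and also passed were, in wildtype livers, Bag2 0.491, Bag4 -0.119, Cct3 -0.145, Dnaja4 -0.536, Dnajb11 -0.348, Dnajb13 -0.287, Dnajb8 0.278, Dnajc14 -0.294, Dnajc28 -0.480, Dnajc5b -0.193, Hspb8 0.206, Hsph1 -0.296 and Pdia4 -0.224. In Dll1 livers these were Dnajb1 -0.415 and Hsph1 -0.555, in Dll1 spleens Dnajc28 0.521, and for the mean in liver Dnajb8 0.180.

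Single arrays with a mouse block and dye term gave 12, 54, 1 and 8 features in the 4 groups, 218 for the mean in liver, 62 for the mean in spleen, and 1 and 107 between organs of Dll1 and wildtype clones, with 1 chaperone gene in wildtype livers and 2 for the mean in liver. Scaled arrays gave 0 features in wildtype livers and 0 for the mean in liver. Keeping the constants gave 0 features in wildtype livers and an ER minus cytosolic mean of 0.0343 there, 0.0549 in Dll1 livers and -0.00275 in wildtype spleens. Complete arrays gave 34 features and 1 chaperone gene for the mean in liver, and 14 features between organs of wildtype clones. With no shift of names, 5 features passed between organs of wildtype clones, and ER minus cytosolic was -0.0633 in wildtype spleens.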
